A study of Mus musculus with 15 samples.

Results

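The thalamus of control mice given saline was described alone, from the 4 libraries whose titles name Maged1 WT mice and saline, of 15 samples in the series. These libraries were picked by their labels and not by any measured value, and within them the levels, ranks and spread of the 20753 protein-coding genes among the 25080 genes listed were examined. The mice were 2 to 4 months old and received saline for 3 days of habituation and then saline vehicle, in place of cocaine, for 5 days. According to the methods, such controls were male floxed Maged1 littermates, on a C57Bl6J background, of mice in which Cre from the Vglut2 promoter deletes Maged1, and the whole thalamus was dissected and lysed without cell sorting. The genotype tag of replicates 1 and 2 read Maged1 Loxp, whereas that of replicates 3 and 4 read Maged1cKO, against their titles. The labels call the libraries independent samples but do not say whether the controls carried Cre or whether each library came from a single mouse. RNA was depleted of ribosomal RNA and sequenced as stranded paired-end reads. Values are in TPM, a transcript abundance that the authors divided by transcript length and scaled to each library's total, so that levels of different genes can be set side by side. The genes listed summed to only 319293 to 333924 TPM per library, and the protein-coding genes to 244300 to 257663 TPM. What held the rest of each library's total was not tested. Bounds such as 1 TPM are therefore stricter than on a scale where protein-coding genes make up the whole total. TPM holds no record of depth, and the counting error behind each value is therefore unknown. Unless stated otherwise, values are the mean ± SD of the 4 libraries, and a rank is the place of a gene's mean among all protein-coding genes. Apart from a check of the labels by Maged1, no groups were compared, and no gene was tested against another, because 4 libraries are too few for an exact paired test of 1 gene against another to reach the usual threshold. The order of a pair of genes is given instead as the number of libraries that showed it and as whether their ranges overlapped.

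The thalamus relays sensory, motor and limbic signals to the cortex and the striatum. Its relay neurons release glutamate, which they load into vesicles mainly with VGLUT2 (Slc17a6), and they fire in bursts through low-threshold calcium channels and in single spikes when depolarized. GABA reaches them chiefly from the thalamic reticular nucleus, a thin shell of inhibitory neurons. The habenula lies above the thalamus and the hypothalamus below it, while the choroid plexus of the third ventricle lies along its roof, so that a dissection can take in parts of each.

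The genes that mark this tissue were high in all 4 libraries. Prkcd, a protein kinase C isoform of many relay neurons, was at 133, 106, 160.2 and 159 TPM in replicates 1 to 4, a mean of 139.6 ± 25.9 TPM and rank 229. Slc17a6 was at 96.5, 78.2, 116 and 98.2 TPM, a mean of 97.2 ± 15.5 TPM (SD, n = 4). Tcf7l2, a transcription factor that sets thalamic identity, was at 85.8, 84.0, 102 and 98.2 TPM. Rora, a nuclear receptor of thalamic relay neurons, was at 54.6, 46.6, 66.9 and 63.0 TPM. All 4 genes were lowest in replicate 2 and highest in replicate 3, and among the 8427 genes with a mean of at least 5 TPM the percentage with their lowest value in replicate 2 was 15.6% and with their highest in replicate 3 was 31.1%. With protein-coding totals made equal, replicate 2 was again the lowest for all 4, beside 30.9% of all such genes, and replicate 3 the highest for 3 of them, beside 24.1%. Their sum ranged from 314 to 445 TPM. In GRCm38, Prkcd lies on chromosome 14 from 30595353 to 30626414, Slc17a6 on chromosome 7 from 51621830 to 51671126, Tcf7l2 on chromosome 19 from 55741797 to 55933659 and Rora on chromosome 9 from 68653404 to 69388246. Maged1, the gene that the study deletes, was at 164, 189, 168 and 166 TPM here and at 89.4, 86.8, 83.0 and 69.2 TPM in the 4 libraries titled cKO saline. Of the latter, replicates 1 and 2 carried the genotype tag Maged1 Loxp, also against their titles. In both groups the Maged1 level went with the titles and not with the tags, so the titles were followed and control replicates 3 and 4 were kept. In whole tissue, fewer cells of a type and less RNA in each cell cannot be told apart.

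Levels were concentrated in few genes and agreed closely between libraries. Of the protein-coding genes, 12079 (58.2%) reached 1 TPM in every library, 5127 reached 10 TPM, and 322 reached 100 TPM. The share of 58.2% is the background for the counts of list members that reached 1 TPM in every library below. A further 3514 were listed at 0 throughout. With protein-coding totals scaled to 1000000, which makes the bound of 1 TPM less strict, 13776 reached 1 TPM in every library. The 100 highest genes held 18.6% ± 0.269 of the protein-coding TPM and the 1000 highest held 50.3%. Between pairs of libraries, Spearman's rho over the 12442 genes with a mean of at least 1 TPM was 0.987 to 0.995, a description across genes, which share each library. From 23 to 87 of these genes differed by more than 2-fold on the log2(TPM + 0.5) scale within a pair.

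The highest entry was Gm20594, at 9634 ± 1873 TPM, a locus annotated as protein-coding under the synonym Mtrnr2l (mitochondrial 16S rRNA-like). Its level is uncertain, since reads of the mitochondrial ribosomal RNA can match it, and without it the 100 highest genes held 15.5%. Next stood Gapdh, an enzyme of glycolysis, at 918 ± 16.3 TPM, and Mbp, a myelin protein, at 857 ± 41.7 TPM. Below them came Fth1 (ferritin heavy chain, 746 TPM), Cpe (a peptide-processing enzyme, 713), Apoe (a lipid carrier secreted by astrocytes, 686), Eef1a1 (a translation elongation factor, 658) and Aldoa (a glycolytic enzyme, 658). The rest of the 20 highest genes included Ubb, Hspa8, Ckb, Gnas, Cst3, Ppia, Rpl41, Ndrg4, Tuba1a, Rplp1 and Snap25, between 498 and 623 TPM. They serve protein turnover and folding, energy supply, signaling, translation, the cytoskeleton and vesicle release. By gene name, 81 cytosolic ribosomal protein genes together held 5.06% ± 0.0972 of the protein-coding TPM, and 36 genes of respiratory complex I held 1.1%. At the other end, 1036 of 1102 olfactory receptor genes and 31 of 39 Hox genes were listed at 0 in every library.

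**Figure D1:**
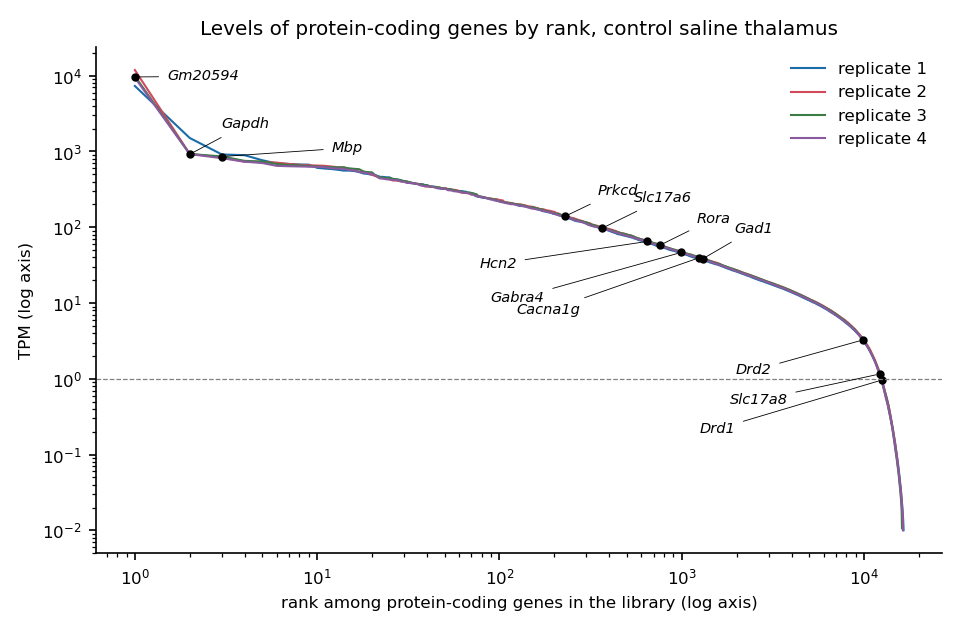
TPM (log axis) of the protein-coding genes of each control saline library against their rank in that library (log axis), 1 line per replicate, with the mean and rank of some genes as points and 1 TPM as a dashed line. The 4 lines lie on each other beyond the first few ranks, where replicate 1 holds Ttr at 1508 TPM, and Slc17a6 stands at rank 366 while Drd1 stands below the dashed line.

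The promoters of 4 genes that the results turn on are shown to set genes that mark the thalamus beside peptide genes that were among the most variable between libraries. In the RefSeq table (GRCm38.p6), 16535 of the protein-coding genes (79.7%) had a sequence of 250 bases before to 50 bases after a start site, the first listed start being used. The start listed for Rora lies inside the span annotated for that gene, so its window overlaps the annotated gene and is not upstream of its outermost base. That share is under 80%, so a check of promoter composition against level over all genes is void, and values are given for genes with a mean of at least 5 TPM, of which 6800 of 8427 had a sequence. In the sequences below, CpG dinucleotides are in capitals. Slc17a6 (chr7:51621580-51621879, plus strand) and Rora (chr9:68653536-68653835, plus strand) mark the thalamus, whereas Hcrt (orexin; chr11:100762882-100763181, minus strand) and Pmch (melanin-concentrating hormone; chr10:88090822-88091121, plus strand) are peptide genes of the lateral hypothalamus that were both highest in replicate 2.
Slc17a6: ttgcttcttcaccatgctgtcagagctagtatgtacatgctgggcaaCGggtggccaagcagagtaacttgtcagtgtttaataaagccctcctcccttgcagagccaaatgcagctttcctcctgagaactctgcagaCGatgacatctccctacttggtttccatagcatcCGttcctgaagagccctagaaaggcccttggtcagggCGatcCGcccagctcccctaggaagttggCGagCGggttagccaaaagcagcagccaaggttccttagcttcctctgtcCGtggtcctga
Rora: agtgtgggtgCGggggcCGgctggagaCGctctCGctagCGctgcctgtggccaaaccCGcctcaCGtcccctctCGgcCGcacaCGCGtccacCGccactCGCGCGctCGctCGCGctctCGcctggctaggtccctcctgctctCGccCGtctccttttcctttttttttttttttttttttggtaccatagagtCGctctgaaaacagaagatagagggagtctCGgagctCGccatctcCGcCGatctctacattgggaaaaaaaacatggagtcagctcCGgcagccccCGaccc
Hcrt: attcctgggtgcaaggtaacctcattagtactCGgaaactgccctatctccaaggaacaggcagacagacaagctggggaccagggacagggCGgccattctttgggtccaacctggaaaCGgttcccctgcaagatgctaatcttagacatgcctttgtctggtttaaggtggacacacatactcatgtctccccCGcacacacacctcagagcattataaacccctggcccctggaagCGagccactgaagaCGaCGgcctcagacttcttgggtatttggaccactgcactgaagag
Pmch: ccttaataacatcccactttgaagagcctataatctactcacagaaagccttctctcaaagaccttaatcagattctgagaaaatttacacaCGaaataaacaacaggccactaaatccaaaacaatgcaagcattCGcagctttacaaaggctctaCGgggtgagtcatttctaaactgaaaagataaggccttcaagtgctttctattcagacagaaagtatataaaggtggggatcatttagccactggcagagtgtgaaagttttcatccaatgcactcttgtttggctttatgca
Rora held 28 CpG dinucleotides, an observed to expected ratio of 1.05, and no TATAAA, and Slc17a6 held 8, a ratio of 0.373. Hcrt held 7 and Pmch 3, and both carried TATAAA on the gene's strand, beginning 33 and 27 bases before the start. Over genes with a mean of at least 5 TPM the median CpG ratio was 0.797, so that Rora lay above this median and Slc17a6 below it. The decile of these genes with the smallest spread between libraries had a median ratio of 0.840 and the decile with the largest spread one of 0.690, over 680 genes each. TATAAA on either strand was in 6.25% of the windows of these genes, in 4.71% of those of the steadiest decile and in 8.09% of those of the most variable decile. Over every window in the table, genes of low level included, the share was 13.1%, but those windows cover under 80% of the protein-coding genes. No comparison with level is drawn from that share. These matches describe letters and do not show that a factor binds.

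Among cell classes, markers of neurons and of oligodendrocytes had the largest sums. The 12 neuron genes summed to 2222 ± 103 TPM, led by Snap25 (vesicle fusion, 498 TPM), Uchl1 (a neuronal ubiquitin hydrolase, 479), Thy1 (221), Tubb3 (neuronal tubulin, 209.6) and Syt1 (the calcium sensor of release, 192). The 15 oligodendrocyte genes summed to 2044 ± 126 TPM, with the myelin genes Mbp at 857, Mobp at 209 and Cnp at 119.7 and the iron carrier Trf at 133 TPM. As deposited, replicate 1 was the highest library for 11 of these 15 genes, against 16.7% of all genes with a mean of at least 5 TPM, and with totals made equal for 12, against 28.4%. The 13 astrocyte genes summed to 800.4 ± 45.7 TPM and were led by the glutamate transporter Slc1a2 (208), Aldoc (182), Agt (angiotensinogen, 68.5), Gja1 (connexin 43, 61.7) and Slc1a3 (61.1). Because lists differ in length and in the abundance of their genes, these sums are not shares of cells.

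Markers of rarer cells were lower. Microglia markers (12 genes) summed to 128 ± 2.62 TPM, with the lysosomal enzyme Ctss at 19.8 and the complement genes C1qb, C1qa and C1qc at 12.7 to 16.7 TPM. Endothelial markers summed to 76.2 ± 6.07, from Ly6c1 at 19.2 and Cldn5, a tight junction protein, at 15.1 down to Cdh5 at 2.03 and Tek at 1.89 TPM, with Itm2a, Flt1, Slco1a4, Abcb1a, Esam and Pecam1 in between. Mural cell markers summed to 41.2 ± 3.42, of which Vtn (17.5) and Rgs5 (14.7) made up most. All 8 mural genes, under both scalings too, and 9 of the 10 endothelial genes as deposited were highest in replicate 1, beside 16.7% of all genes with a mean of at least 5 TPM, or 28.4% with protein-coding totals made equal. Here and below, lists were counted whole, while such shares cover only genes with a mean of at least 5 TPM. Of the mural genes 2 reached that bound, and of the endothelial genes 5. Oligodendrocyte precursor markers summed to 57.4 ± 3.18, with Lhfpl3 at 19.1, Olig2 at 11.0 and Pdgfra, the growth factor receptor that defines these cells, at 8.24 TPM. Gpr17, C1ql1, Cspg4 and Vcan lay between 3.09 and 6.81 TPM. Ependymal and motile cilia genes summed to 33.0 ± 1.70, with Tmem212 at 8.87, Foxj1, the master regulator of motile cilia, at 8.06 and Ccdc153 at 7.29 TPM.

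Replicate 1 stood apart in genes of the choroid plexus and the meninges. Ttr, the thyroid hormone carrier that choroid plexus cells make in bulk, was at 1508, 12.3, 14.9 and 55.9 TPM. Enpp2, a lysophospholipase of the same cells that oligodendrocytes also make, was at 319, 43.7, 44.8 and 51.3 TPM. All 9 choroid plexus genes were highest in replicate 1, where 16.7% of all genes with a mean of at least 5 TPM were highest as deposited and 28.4% with totals made equal, a background that also stands beside the counts of meningeal and red blood cell genes given next. Of the 9 choroid plexus genes 2 had such a mean, as did 1 of 8 meningeal and 4 of 5 red blood cell genes. The other values by library were 15.2, 0.5, 0.520 and 0.881 TPM for Kl, 12.5, 1.73, 1.61 and 2.14 for Clic6, 9.23, 0.531, 0.665 and 0.908 for Folr1, 5.37, 0.0447, 0.0559 and 0.293 for Kcnj13, 4.21, 0.216, 0.250 and 0.343 for Aqp1 and 2.91, 0.0777, 0.0431 and 0.178 for Slc4a5. The list summed to 1882, 61.8, 66.2 and 115 TPM in replicates 1 to 4, so that replicate 1 stood far above the other three libraries and replicate 4 above replicates 2 and 3. All 8 fibroblast and meningeal genes were also highest in replicate 1, where the list summed to 47.2 TPM against 12.4 to 13.4 in the other libraries. Igf2, a growth factor of the meninges and choroid plexus, was at 25.9, 6.06, 6.38 and 6.08 TPM and the collagen gene Col1a2 at 6.90, 2.21, 1.92 and 2.23 TPM. The others were Dcn (4.41 TPM in replicate 1), Col1a1 (4.08), Lum (1.91), Ogn (1.85), Aldh1a2 (1.65) and Slc22a6 (0.486). Red blood cell genes summed to 415, 309, 262 and 226 TPM, and each of the 5, namely the hemoglobin genes Hbb-bs (124), Hba-a1 (89.7), Hba-a2 (69.2) and Hbb-bt (19.1) and the heme synthesis gene Alas2 (0.963), was highest in replicate 1. The near-identical pair Hba-a1 and Hba-a2, like Hbb-bs and Hbb-bt, shares sequence, so the split within each pair is uncertain.

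Genes of neighboring nuclei varied as well. The 10 hypothalamic genes summed to 257, 529, 284 and 149 TPM, and 7 of them were highest in replicate 2, beside 39.8% of all genes with a mean of at least 5 TPM and 25.0% with totals made equal. Oxt, the oxytocin precursor, was at 108, 203, 204 and 96.0 TPM and Avp, the vasopressin precursor, at 74.4, 83.4, 48.8 and 18.0 TPM. Pmch was at 54.1, 117, 15.5 and 19.0 TPM and Hcrt at 1.53, 103, 0 and 3.95 TPM, the latter listed at 0 in replicate 3. Gal (galanin, 6.83), Trh (thyrotropin-releasing hormone, 6.35), Pomc (1.93), Nkx2-1 (1.64), Sim1 (0.449) and Agrp (0.0772) were lower, the last of them near 0. The 8 habenular genes summed to 66.9, 68.8, 61.4 and 89.8 TPM, and all 8 were highest in replicate 4, against 12.4% of all genes with a mean of at least 5 TPM, or 22.4% with totals made equal. They were Tac2 (neurokinin B, 23.1, 24.9, 19.7 and 29.5 TPM), Gpr151, an orphan receptor of habenular neurons (14.6, 14.1, 13.9 and 19.3), Nwd2 (13.5, 13.5, 12.8 and 18.7), the nicotinic subunits Chrna3, Chrnb4 and Chrnb3 (4.46, 3.95 and 2.15), Pou4f1 (a transcription factor of the medial habenula, 4.31) and the choline transporter Slc5a7 (2.46). Of the hypothalamic genes 6 had a mean of at least 5 TPM, and of the habenular genes 3. The counts of highest genes for the choroid plexus, meninges, red blood cell, hypothalamus and habenula lists were the same with protein-coding totals made equal and under median-of-ratios scaling. The part of these neighboring tissues in other results was not tested, and values by library are given for some of the genes only.

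Markers of regions farther away were mixed, and many but not all were low. The lists of cortex and hippocampus, striatum and midbrain dopamine neurons summed to 74.2, 53.3 and 31.0 TPM, beside 71.7 TPM for the habenula list. Of 9 genes of cortex and hippocampus, Slc17a7 (VGLUT1) stood at 48.0 ± 6.77 TPM, a gene that thalamic neurons also express, and Cux2 at 19.3 and Fibcd1 at 4.4 TPM. The genes of cortical projection neurons Tbr1, Neurod2, Neurod6 and Emx1 had means from 0.0606 to 0.873 TPM. Of 10 striatal genes, Pde10a was at 11.2, Ppp1r1b (DARPP-32) at 10.4, Penk at 8.84, Tac1 at 8.15, Rgs9 at 4.75 and Rarb at 2.62 TPM, whereas the receptors of medium spiny neurons, Drd1 and Adora2a, were at 0.963 and 0.483 TPM. By library, Ppp1r1b was at 17.6, 7.93, 6.80 and 9.09 TPM and Penk at 9.56, 12.9, 6.41 and 6.42 TPM. Among 6 midbrain dopamine genes, Aldh1a1 reached 25.6 TPM, while Th, Slc18a2, Slc6a3, Pitx3 and En1 had means of 3.95, 0.995, 0.172, 0.210 and 0.0853 TPM.

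**Figure D2:**
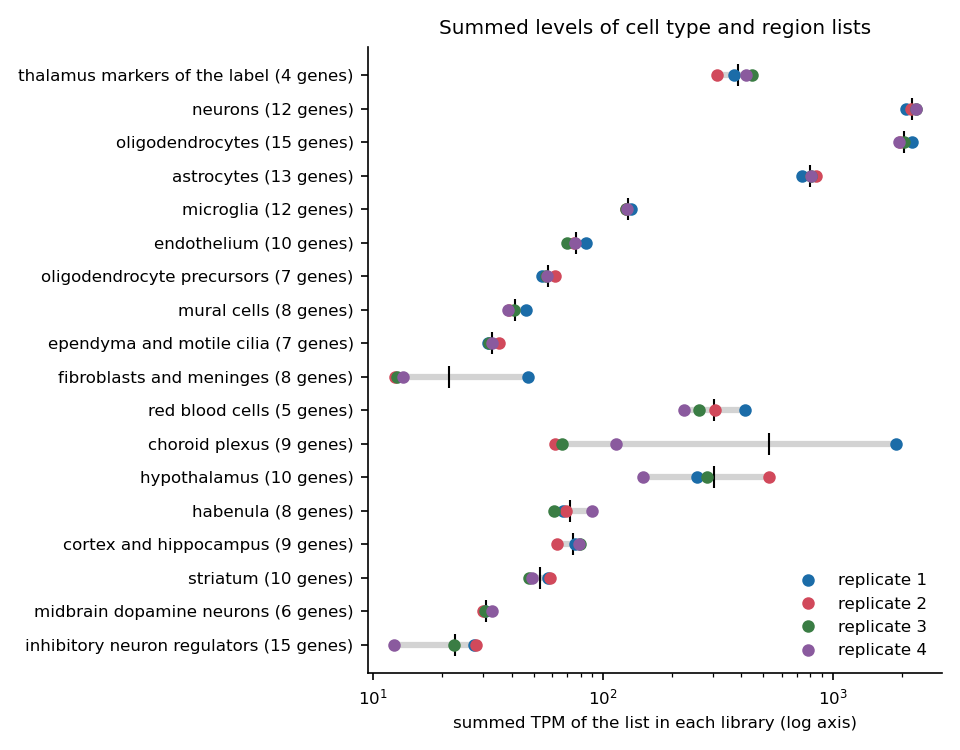
Summed TPM (log axis) of each list of cell type or region markers in the 4 control saline libraries, 1 colored point per replicate, the mean as a tick and the range as a gray bar. Most lists lie within a narrow range, whereas the choroid plexus and the fibroblast and meninges lists are set off by replicate 1 and the hypothalamus list by replicate 2, and the inhibitory regulators are lowest in replicate 4.

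Transcription factors of the thalamus were expressed together. All 20 thalamic regulators reached 1 TPM in every library, with a median of the means of 16.2 TPM. After Tcf7l2 and Rora came Zic1, a zinc finger factor, at 50.2, 41.8, 47.6 and 49.9 TPM, Id4, an inhibitor of bHLH factors, at 32.3 ± 2.42 TPM, and Nr2f1 (COUP-TFI), at 31.2 ± 3.37 TPM. The order from Tcf7l2 to Rora to Zic1 was found in 4 of 4 libraries, while Id4 and Nr2f1 exchanged places between libraries. Replicate 3 was the highest for 14 of the 20, beside 31.1% of all genes with a mean of at least 5 TPM, and for 13 with protein-coding totals made equal, beside 24.1%. Replicate 1 was the lowest for 12 and replicate 2 for 4, beside 47.9% and 15.6% of all such genes. With totals made equal these counts were 11 and 4, beside 32.4% and 30.9%. By contrast, the 15 regulators of inhibitory neurons were low, and only 4 reached 1 TPM in every library. Six3, a factor of the reticular nucleus and other forebrain areas, was at 5.43, 5.88, 5.23 and 1.64 TPM, Otx2, which choroid plexus cells also make, at 5.08, 2.67, 3.30 and 2.58, Meis2 at 3.39, 3.56, 2.91 and 1.06 and Dlx1 at 2.5, 3.07, 1.86 and 0.913 TPM. Replicate 4 was the lowest for 10 of the 15, against 24.7% of all genes with a mean of at least 5 TPM, and the same count was found under both scalings, beside 17.6% with totals made equal. None of the 15 had a mean of 5 TPM, Six3 being the highest at 4.54 TPM, so these shares come from genes of higher level.

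Genes used to tell thalamic nuclei apart spanned a wide range. Cck, the cholecystokinin precursor, was at 189, 139, 184 and 173 TPM and Calb2 (calretinin), a calcium buffer of midline nuclei, at 128, 153, 147 and 137 TPM. Adarb1, an RNA-editing enzyme, was at 104 ± 12.1 TPM, and Rgs4, which speeds the shutdown of G proteins, at 69.5 ± 10.01 TPM. Cck, Adarb1 and Rgs4 were lowest in replicate 2, where the 4 label markers were also lowest, whereas Calb2 was highest there. Over all 20 nuclear markers, 9 were lowest in replicate 1 and 6 in replicate 2, Prkcd among the latter. The shares of all genes with a mean of at least 5 TPM were 47.9% and 15.6%. Of the 20 nuclear markers, 18 reached 1 TPM in every library.

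Of the genes that handle glutamate, those of uptake and recycling were highest. Glul, the glutamine synthetase of glia, was at 341 ± 13.9 TPM and ranked 43. Slc1a2 (GLT-1) stood at 208 ± 11.0 TPM and Slc1a3 (GLAST) at 61.1 ± 5.25 TPM, a ratio of 3.42 ± 0.279 within libraries. Of the vesicular transporters, Slc17a6 exceeded Slc17a7 in 4 of 4 libraries, with ratios of 1.96, 2.05, 2.22 and 1.87, a mean of 2.03 ± 0.151 (SD, n = 4). Slc17a7 was at 49.2, 38.1, 52.2 and 52.5 TPM, lowest in replicate 2 like Slc17a6, so that the ratio moved less than either gene. Slc17a8 (VGLUT3) was low, at 1.16 ± 0.324 TPM.

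Among ionotropic receptors, AMPA subunits followed the order Gria1, Gria2, Gria4, Gria3 in 4 of 4 libraries, with no overlap between neighbors. Gria1 was at 53.2, 60.5, 53.2 and 57.9, Gria2 at 38.1, 43.8, 41.1 and 40.1, Gria4 at 27.5, 27.8, 29.3 and 28.5 and Gria3 at 17.7, 16.0, 18.3 and 16.7 TPM. For the NMDA receptors, Grin1, the obligatory subunit, was at 81.0 ± 2.11 TPM, and Grin2b, at 30.5 ± 2.18 TPM, exceeded Grin2a 2.23 ± 0.0697 times. Grin3a (16.5), Grin2d (14.6), Grin2a (13.7) and Grin2c (13.1) followed, and each neighboring pair of these overlapped in range. Grin3b was under 1 TPM in every library. Grik5 led the kainate subunits at 30.4 ± 2.11 TPM, ahead of Grik2 (8.07), Grik3 (7.26), Grik1 (6.25) and Grik4 (5.49). The delta subunit Grid1, which binds cerebellins at synapses, was at 19.9 TPM. Of the metabotropic receptors, Grm4, a presynaptic receptor, was at 28.0 ± 2.34 TPM, ahead of Grm2 (20.0), Grm7 (19.6), Grm5 (18.2), Grm3 (15.6) and Grm8 (3.95), while Grm6, a receptor of the retina, was listed at 0 in 3 of 4 libraries. Grm2, Grm7 and Grm5 could not be ordered by range. All 20 partners of glutamate receptors reached 1 TPM in every library, led by the scaffolds Dlg4 (PSD-95, 113), Shank1 (93.5) and Shank3 (60.9) and the AMPA receptor auxiliaries Cnih2 (73.2) and Cacng7 (44.2).

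Genes that take up and break down GABA were prominent. The astrocytic transporter Slc6a11 (GAT-3) was at 113, 149.7, 136 and 136 TPM in replicates 1 to 4. Abat, which breaks GABA down, was at 74.7 ± 6.88 TPM, and Aldh5a1, the next enzyme in that path, at 22.2 ± 0.868 TPM. The synthetic enzyme Gad1 was at 43.2, 52.7, 40.1 and 17.3 TPM, Gad2 at 31.6, 36.4, 27.9 and 15.9 TPM, and the vesicular transporter Slc32a1 at 23.1, 27.2, 18.4 and 11.5 TPM. All 3 were lowest in replicate 4, as were most inhibitory regulators, and highest in replicate 2. Of all genes with a mean of at least 5 TPM, 24.7% were lowest in replicate 4 and 39.8% highest in replicate 2. With totals made equal these shares were 17.6% and 25.0%. Over the whole list of 10 GABA and glycine genes, 4 were lowest in replicate 4 and 4 in replicate 1, while 8 were highest in replicate 2, or 7 with totals made equal. The ratio of Slc17a6 to Slc32a1 ran from 2.88 in replicate 2 to 8.51 in replicate 4. The glial glycine transporter Slc6a9 was at 31.3 ± 1.70 TPM, whereas Slc6a5, which defines glycinergic neurons, was at 0.0768 TPM and Slc6a13, a transporter of the meninges, at 0.929 TPM.

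GABA-A receptor subunits Gabrb2 and Gabra4 were high. Gabrb2 was at 45.8, 47.3, 54.9 and 52.7 and Gabra4 at 45.9, 39.8, 52.6 and 48.2 TPM, in overlapping ranges. Gabrd, which with Gabra4 forms extrasynaptic receptors in the thalamus, was at 26.3, 20.8, 29.9 and 27.8 TPM. Gabra4 and Gabrd were lowest in replicate 2, as the label markers were. Over all 19 subunits, 4 were lowest in replicate 2 and 11 in replicate 1. The shares of all genes with a mean of at least 5 TPM were 15.6% and 47.9%. Of the 19 subunits, 13 reached 1 TPM in every library and 5 had means under it. The metabotropic subunits Gabbr1 and Gabbr2, an obligate pair, were at 205 ± 13.6 TPM and 88.5 ± 8.05 TPM, a ratio of 2.32 ± 0.0804. Among glycine receptor subunits, Glrb was at 52.9 ± 2.66 TPM, far above Glra2 (7.51), Glra1 (7.07), Glra3 (3.33) and Glra4 (0.0844). Of the chloride handling genes, the exporter Slc12a5 (KCC2) was steady at 97.8 ± 2.06 TPM, and the channels Clcn4, Clcn3 and Clcn6 were at 36.2, 34.4 and 25.6 TPM. The importer Slc12a2 (NKCC1) varied more, at 23.9, 16.4, 18.0 and 16.7 TPM, highest in replicate 1.

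**Figure D3:**
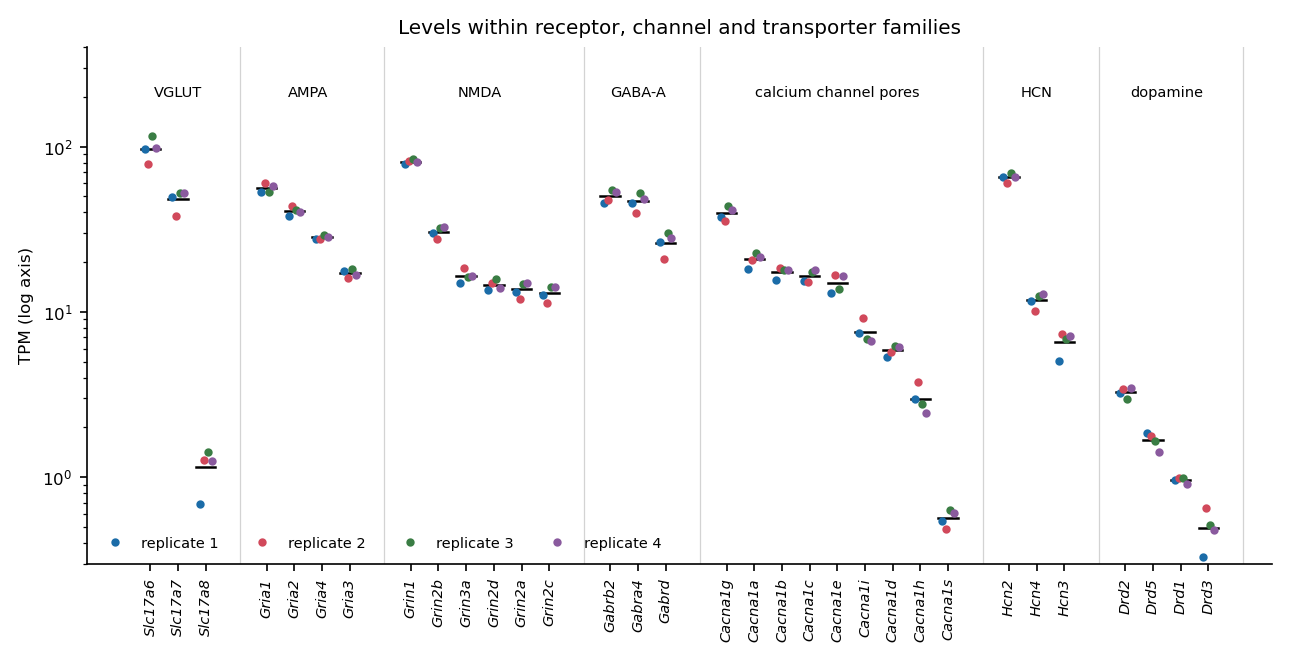
TPM (log axis) of members of 7 gene families, among those with a mean of at least 0.4 TPM, 1 colored point per control saline library and the mean as a bar. Gaps between leading members, such as Slc17a6 over Slc17a7, Grin1 over Grin2b and Cacna1g over Cacna1a, exceed the scatter of the points, whereas Grin3a, Grin2d, Grin2a and Grin2c lie within each other's scatter.

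Receptors for modulatory transmitters ranged from well above to below 1 TPM, the level taken as detection. Hrh3, the histamine autoreceptor and heteroreceptor, was the highest of the histamine, dopamine, serotonin, adrenergic, muscarinic and opioid receptors, at 35.7, 35.8, 43.6 and 36.0 TPM. Hrh1, which is Gq-coupled, and Hrh2, which is Gs-coupled, were at 3.36 and 3.05 TPM and Hrh4 was listed at 0 in every library. The nicotinic pair Chrna4 and Chrnb2, which form the main high-affinity receptor of the brain, was at 28.3 ± 1.86 TPM and 23.1 ± 0.534 TPM, a ratio of 1.22 ± 0.0543. Chrna7 was at 4.02 TPM. Of the muscarinic receptors, Chrm2 and Chrm3 were at 7.59 and 6.63 TPM with overlapping ranges, and Chrm1, Chrm5 and Chrm4 at 1.36, 0.873 and 0.865 TPM. Ache, which breaks acetylcholine down, stood at 46.0, 56.7, 46.6 and 47.5 TPM, whereas the genes of cholinergic neurons were low. Slc5a7 was at 2.17, 2.42, 2.10 and 3.15, Slc18a3 at 1.87, 1.64, 1.76 and 2.89 and Chat at 1.31, 1.44, 1.51 and 2.19 TPM. All 3 were highest in replicate 4, beside 12.4% of all genes with a mean of at least 5 TPM, or 22.4% with totals made equal. Slc5a7 is itself a member of the habenular list, and all 3 lay under the bound of that share.

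Serotonin receptors were led by Htr2c (18.2 ± 1.11 TPM) and Htr7 (9.97 ± 0.520 TPM), an order found in 4 of 4 libraries without overlap, and Htr5b (3.19, 3.13, 3.14 and 4.48 TPM, highest in replicate 4), Htr4 (2.61) and Htr5a (1.99) came next. Adrenergic receptors were led by Adra1b, at 14.1 ± 1.53 TPM, and Adrb1, at 8.11 ± 0.878 TPM, ahead of Adra2b (4.32), Adra2a (4.13), Adra1d (2.85), Adra1a (2.2), Adra2c (1.91) and Adrb3 (0.189). Dopamine receptors were low in the order Drd2, Drd5, Drd1, Drd3, Drd4 in 4 of 4 libraries. Drd2, which neurons of the paraventricular thalamus express, was at 3.25, 3.39, 2.95 and 3.46 TPM, Drd5 at 1.85, 1.79, 1.65 and 1.43, Drd1 at 0.964, 0.985, 0.992 and 0.911, Drd3 at 0.330, 0.649, 0.513 and 0.479 and Drd4 at 0.0532, 0.181, 0.0824 and 0.0617 TPM. Enzymes that clear monoamines exceeded those that make them, with Maob at 23.8 and Maoa at 13.2 TPM against Ddc at 5.35 and Th at 3.95 TPM. Of 15 genes of monoamine supply, 9 had means under 1 TPM, whereas 12442 of all 20753 protein-coding genes had a mean of at least 1 TPM. For adenosine and endocannabinoids, the enzymes Mgll (25.7), Dagla (21.7), Faah (10.1) and Napepld (9.58) and the inhibitory receptor Adora1 (22.2) led the list of 11.

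Neuropeptide genes were among the most uneven. Of 33 precursors, 20 reached 1 TPM in every library, and 22 of the 33 were highest in replicate 2, against 39.8% of all genes with a mean of at least 5 TPM, and 22 with protein-coding totals made equal, against 25.0%. After Cck and Oxt came Sst (somatostatin), at 59.0, 73.2, 74.9 and 37.3 TPM, which was lowest in replicate 4. Cartpt, made by lateral and other hypothalamic neurons, was at 13.8, 57.2, 6.65 and 7.71 TPM, high in replicate 2 as Hcrt and Pmch were. The median coefficient of variation (CV, the SD divided by the mean) of the 13 precursors with a mean of at least 5 TPM was 0.336, against 0.0579 for all genes. By comparison, the granins and processing partners that all peptide neurons share were steadier, with a median CV of 0.0651. Pcsk1n was at 211, Scg2 at 84.7, Scg5 at 80.8, Vgf at 76.6, Chga at 61.0, Scg3 at 42.2 and Chgb at 39.5 TPM, and 6 of the 7 were highest in replicate 2, or 5 with totals made equal.

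Peptide receptors were low apart from a pair. Ntsr2, the neurotensin receptor of astrocytes, was at 55.8 ± 3.63 TPM, and Adcyap1r1, the receptor of PACAP, at 38.6 ± 3.78 TPM. Npy1r (4.97), Trhr2 (4.03) and Sstr1 (3.77) came next, and 16 of 38 had means under 1 TPM. Of all 20753 protein-coding genes, 12442 had a mean of at least 1 TPM, so that count does not set peptide receptors apart. Of the opioid receptors, Oprl1, the nociceptin receptor, was at 16.6, 19.0, 16.0 and 17.6 TPM and Oprm1, the mu receptor, at 12, 14.7, 16.5 and 17.0 TPM, in overlapping ranges, ahead of Oprk1 (2.31) and Oprd1 (0.636).

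Channels that shape thalamic firing were prominent. Cacna1g (CaV3.1), the T-type channel of relay neurons, was the highest pore-forming calcium channel subunit, at 37.7, 35.4, 43.5 and 41.4 TPM, and exceeded Cacna1i (CaV3.3), the T-type channel of reticular neurons, 5.34 ± 1.16 times. Cacna1i was at 7.49, 9.23, 6.88 and 6.69 TPM, highest in replicate 2, and the third T-type gene Cacna1h at 2.99 TPM. The other pores were Cacna1a (20.8), Cacna1b (17.5), Cacna1c (16.4), Cacna1e (15) and Cacna1d (5.86), and Cacna1s and Cacna1f were at 0.567 and 0.0352 TPM. The auxiliary subunits were led by Cacnb3 (35.4) and Cacnb4 (26.3), while Cacna2d1, Cacna2d3, Cacnb1, Cacnb2 and Cacna2d2 lay from 16.2 to 18.7 TPM and Cacna2d4 at 2.22. Hyperpolarization-activated channels kept the order Hcn2, Hcn4, Hcn3 in 4 of 4 libraries. Hcn2 was at 65.2, 60.4, 68.9 and 65.5 TPM, 5.55 ± 0.359 times Hcn4, at 11.6, 10.1, 12.5 and 12.8 TPM, and Pex5l (TRIP8b), which controls their trafficking, was at 36.0 ± 2.44 TPM.

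Among sodium channels, the beta subunit Scn2b was at 85.6 ± 3.34 TPM, above the pores Scn2a (44.5), Scn1a (32.8) and Scn8a (27.0), in that order in 4 of 4 libraries. Voltage-gated potassium channels were led by Kcnc1 (Kv3.1, for fast repolarization), at 48.2 ± 3.11 TPM, above Kcnd2 of the A-current (31.5 ± 2.08 TPM), Kcna2 (30.6 ± 2.54 TPM) and Kcna6 (26.1 ± 0.245 TPM). Kcna6 was the steadiest of these 4, with a CV of 0.00938. Partners of these channels followed, with Kcnab2 at 70.1, Dpp6 at 60.7, Kcnip4 at 36.3, Dpp10 at 29.9, Kcnmb4 at 23.4, Kcnip3 at 20.5, Kcnab1 at 19.0, Kcnip1 at 13.4, Kcnab3 at 7.07 and Kcnip2 at 4.16 TPM. The calcium-activated BK channel Kcnma1 was at 41.8 ± 3.83 TPM, well above Kcnt1 (11.1) and the SK channels Kcnn2 (10.5), Kcnn3 (8.87) and Kcnn1 (3.51). Kcnj10 (Kir4.1), the inward rectifier of astrocytes and oligodendrocytes, was at 69.2 ± 3.51 TPM, and the G protein-gated subunits Kcnj9, Kcnj3 and Kcnj6 were at 35.2, 19.0 and 14.9 TPM. Two-pore leak channels were led by Kcnk1 (21.8), Kcnk3 (TASK-1, 12) and Kcnk9 (TASK-3, 10.3), ahead of Kcnk12 (7.92), Kcnk2 (6.28), Kcnk10 (4.67), Kcnk4 (3.29), Kcnk13 (3.15), Kcnk6 (0.836) and Kcnk5 (0.193). Among 21 TRP channels, Trpm3 was at 28.3, 17.1, 15.6 and 17.7 TPM, highest in replicate 1, and above Trpc1 (8.08), Trpm7 (7.43) and Trpm2 (7.43).

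The vesicle release machinery summed to 2668 ± 117 TPM over 31 genes, of which 8 had means of at least 100 TPM. Snap25 was at 429, 494, 530.5 and 537 TPM, Syp at 342, 329, 343 and 326, Vamp2 at 220.4, 255, 253 and 249.6, Cplx1 at 194, 174, 203 and 204 and Syt1 at 182, 185, 202 and 198 TPM. Replicate 1 was the lowest for 20 of the 31, beside 47.9% of all genes with a mean of at least 5 TPM, while with protein-coding totals made equal it was the lowest for 16 beside 32.4% of all genes. Immediate early genes were low, as Jund, which is expressed at rest, reached 46.6 ± 3.51 TPM while Jun (12.3), Dusp1 (11.2), Egr1 (9.49), Nr4a2 (6.66) and Fos (2.99, 6.20, 5.23 and 5.30 TPM by library) followed. Nr4a2 is also a gene of habenular neurons and was highest in replicate 4, at 8.77 TPM. Of the clock genes, the output factors Tef (40.4 ± 0.465 TPM), Hlf (39.2 ± 4.11 TPM) and Dbp (40.3, 26.8, 33.7 and 33.5 TPM by library), the repressor Nr1d1 (25.3, 29.3, 32.5 and 30.9) and Cry2 (27.8) were highest. Corticosteroid genes were led by Tsc22d3 (36.6) and the glucocorticoid receptor Nr3c1 (23.1 ± 1.63 TPM), with Sgk1 at 17.2, Per1 at 14.5, the mineralocorticoid receptor Nr3c2 at 5.39 and Fkbp5 at 5.39 TPM. The BDNF receptor Ntrk2 was at 84.8 ± 6.57 TPM, 27.7 ± 1.67 times Bdnf, at 3.07 ± 0.357 TPM, and Sort1 (39.8) and Ntrk3 (14.9) were also seen.

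Maged1 was among the most abundant genes of the tissue. It is a member of the MAGE family of ubiquitin ligase adaptors, lies on chromosome X from 94535474 to 94542025 (GRCm38), ranked 166 and had a mean of 171 ± 11.6 TPM (SD, n = 4). Replicate 2 was the highest and the other three libraries lay from 164 to 168 TPM. Ndn (necdin), an imprinted member of the family, was at 145, 167, 129 and 126 TPM, and the others were Magee1 (46.2), Maged2 (24.7), Mageh1 (14), Nsmce3 (10.8), Magee2 (3.09) and Magel2 (2.34). Usp7, a ubiquitin-specific protease with many substrates, lies on chromosome 16 from 8688722 to 8757067 and was at 19.7, 21.7, 22.8 and 21.3 TPM. Maged1 exceeded Usp7 8.03 ± 0.601 times on the TPM scale. Among 11 deubiquitinases tied to histone H2A, Usp7 stood below Usp22 (58.0 ± 3.14 TPM) and Bap1 (25.0 ± 0.667 TPM) and above Usp46 (16.4 ± 0.812 TPM) and Brcc3 (12.7 ± 1.25 TPM) in 4 of 4 libraries.

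Polycomb genes were expressed at moderate levels. Polycomb repressive complex 2 (PRC2), which methylates histone H3, had a median CV of 0.0364 over its 8 genes with a mean of at least 5 TPM, against 0.0579 for all genes. Its histone-binding subunits Rbbp7 and Rbbp4 were at 26.6 and 18.3, Phf1 at 15.2, Suz12 at 9.17 and Eed at 4.16 TPM. Of the catalytic subunits, Ezh1 was at 10.1, 11.8, 10.8 and 10.2 TPM and Ezh2 at 1.97, 1.91, 1.94 and 1.89 TPM, a ratio of 5.57 ± 0.444. Polycomb repressive complex 1 (PRC1), which monoubiquitinates H2A, had a median CV of 0.0575 over 12 genes, close to that of all genes, and was led by the chromobox gene Cbx6 at 53.8 ± 1.68 TPM, with Yaf2 (25.0), Phc2 (17.6) and Cbx7 (12.5) below it. Its ubiquitin ligases Ring1 and Rnf2 were at 8.78, 9.72, 8.43 and 8.55 and 4.41, 4.57, 4.79 and 4.19 TPM, Ring1 being higher in 4 of 4 libraries without overlap.

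Of genes for identical or near-identical proteins, some pairs kept steadier proportions than others. Actb exceeded Actg1 1.34 ± 0.0116 times and Tuba1a exceeded Tuba1b 1.66 ± 0.0606 times. The histone variant H3.3 came from H3f3a (84.1) and H3f3b (55.3), and Eef1a1 exceeded the neuronal form Eef1a2 6.67 ± 0.331 times.

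Most genes varied little between the 4 libraries. Over the 8427 genes with a mean of at least 5 TPM the median CV was 0.0579, falling from 0.0671 at 5 to 10 TPM to 0.0486 at 100 TPM and above. Only 18 had a CV above 0.5, and without replicate 1 there were 7. Of the 20 genes with the largest CV, which were picked by their values, 14 were highest in replicate 1, 5 in replicate 2 and 1 in replicate 4. Of all genes with a mean of at least 5 TPM, 16.7% were highest in replicate 1, 39.8% in replicate 2 and 12.4% in replicate 4. Bpifa2, a secreted protein best known from salivary glands, had the largest CV, with 20.6, 0.114, 0 and 0.106 TPM, and Hcrt and Ttr came next at 1.87 and 1.86. Ecrg4, a peptide gene of choroid plexus epithelium, was at 32.0, 3.21, 1.97 and 4.25 TPM, and Ptgds, a prostaglandin synthase of meninges and oligodendrocytes, at 328, 135, 132 and 139.6 TPM. Mgp, Igfbp2, Col9a3, Id1, Ace, Mia, Ifi27 and Ppp1r1b likewise stood highest in replicate 1, at 9.54 to 26.8 TPM, the top value being that of Igfbp2. Genes that peaked elsewhere were 2210418O10Rik, at 1.94, 8.44, 1.25 and 8.37 TPM, and Zfyve9, an endosomal protein, at 4.19, 2.78, 3.93 and 9.24 TPM. Near the bound of 0.5, Mia had a CV of 0.515 and Ifi27 of 0.497.

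**Figure D4:**
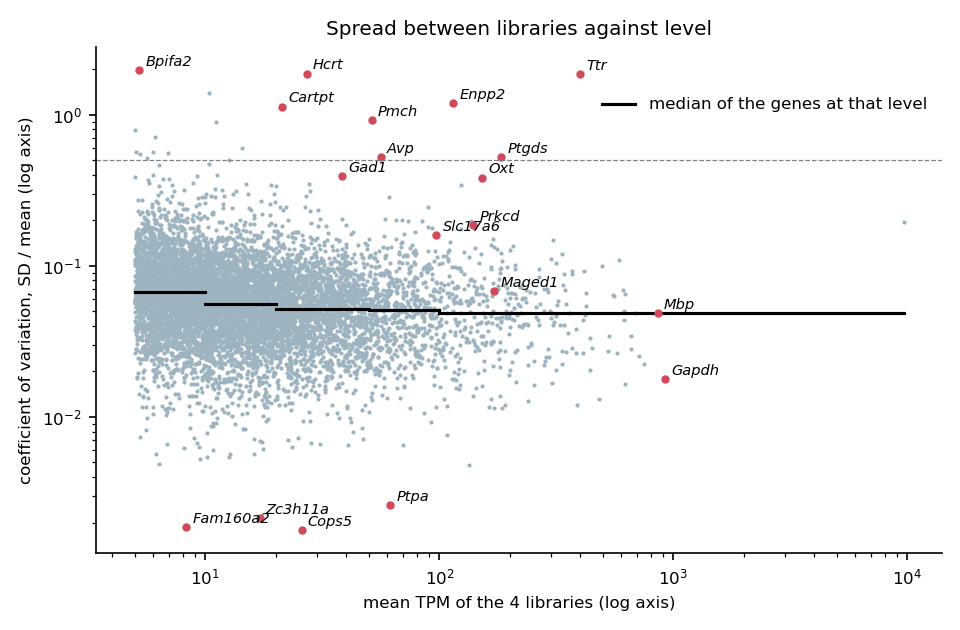
CV (SD divided by mean, log axis) against mean TPM (log axis) of each protein-coding gene with a mean of at least 5 TPM in control saline thalamus, with the median of 5 ranges of level as black lines, a CV of 0.5 as a dashed line and some genes in red. Ttr, Hcrt and Enpp2 lie far above the median line, Slc17a6 and Prkcd a few times above it, and Cops5, Fam160a2, Zc3h11a and Ptpa below all other genes.

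The 10 steadiest genes served different cell functions. Cops5, a subunit of the COP9 signalosome, was at 25.7, 25.8, 25.8 and 25.9 TPM, a CV of 0.00178 where the genes nearest in level had a median of 0.0492. Fam160a2, a cargo adaptor, was at 8.29, 8.27, 8.25 and 8.28 TPM and Zc3h11a, of mRNA export, at 17.1, 17.0, 17.1 and 17.0 TPM. Ptpa, which activates protein phosphatase 2A, was at 61.6, 61.8, 61.6 and 61.4 TPM. Atp6v1e1, of the vacuolar proton pump, followed with a CV of 0.00482 and then P4ha1 (collagen hydroxylation), Morc2a (chromatin), Alg1 (glycosylation), Rnf123 (a ubiquitin ligase) and Dennd1b (a Rab activator) with CVs from 0.00489 to 0.00565. Among so many genes some must agree this closely in 4 libraries, and these 10 were picked by their values. For the label markers the CV was 0.159 for Slc17a6, 0.185 for Prkcd, 0.157 for Rora and 0.0966 for Tcf7l2, against medians from 0.0495 to 0.0508 of genes at their levels. Maged1 had a CV of 0.0678 against 0.0487 and Usp7 one of 0.0614 against 0.0549.

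**Figure D5:**
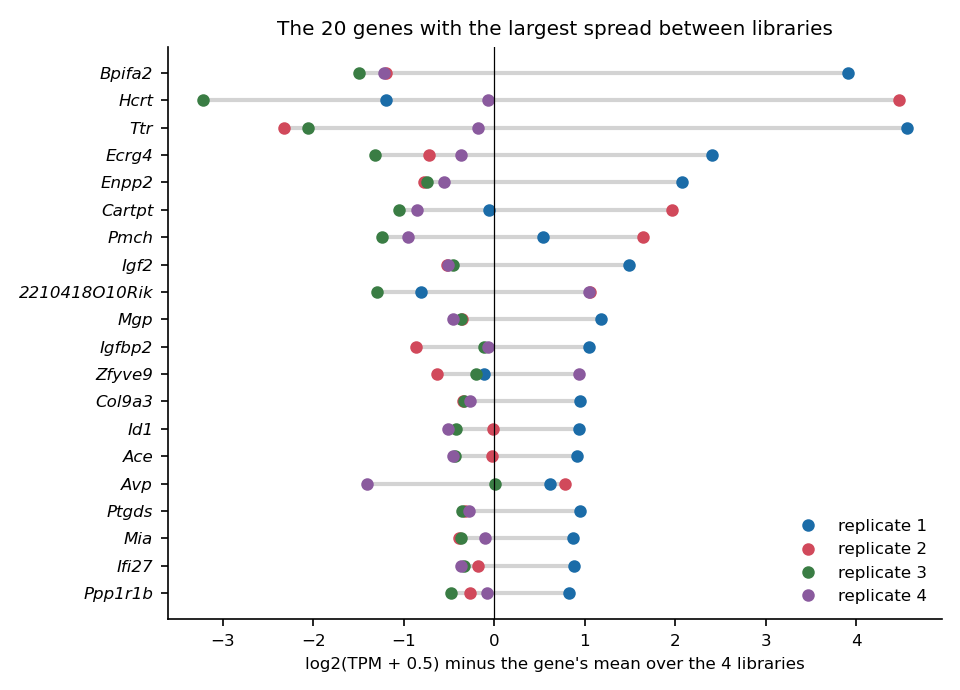
Values of log2(TPM + 0.5) minus the gene's mean over the 4 control saline libraries, for the 20 protein-coding genes with a mean of at least 5 TPM and the largest CV, 1 colored point per replicate and the range as a gray bar. Replicate 1 is farthest to the right in 14 of the 20, among them Ttr and Enpp2, and replicate 2 in Hcrt, Cartpt, Pmch and Avp. Of all genes with a mean of at least 5 TPM, 16.7% were highest in replicate 1 and 39.8% in replicate 2.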

How the data were processed

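The authors mapped paired-end reads of ribosomal RNA-depleted libraries to the mouse genome GRCm38 with STAR 2.5.3a, quantified transcripts with Salmon and summed them to genes. The deposited values are TPM per gene for each library, and 1 of the 4 files uses commas as decimal marks, which were converted. TPM keeps no read totals, so counting error, depth and detection floors are unknown. The annotated loci of a family that share sequence can also share reads.

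Samples were grouped by their titles. Members and gene lists were chosen with earlier results of these data known. Symbols were matched to the RefSeq annotation, 24894 directly and 102 by synonym, while 84 were unmatched, and protein-coding is the biotype given there. Promoter windows came from the same source. Means, SD, ranks, ratios within a library, list sums and CV (genes with a mean of at least 5 TPM) were computed with Python 3.11.15, numpy 2.4.6 and pandas 2.3.3, and the spread step was tested on simulated data. Detection meant 1 TPM in every library. Genes named with values were the 4 label markers, Maged1, Usp7, the 20 highest, the 20 with the largest and the 10 with the smallest CV, and members drawn from each list, all of them where a list had 10 or fewer and otherwise the 5 highest, those under 1 TPM being counted and named only where they define a cell type. Some genes that this rule selects are not reported here. Slc17a8, Fos, Eed, Ezh2, Ring1, Rnf2 and the paralog pairs fall outside that rule and were chosen after their values were seen. Libraries labelled cKO saline served only to check Maged1, and the other samples were not used here.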

Additional observations from a re-analysis of the deposited data

Results flagged for a closer look

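Of the 351 named genes with a mean of at least 1 TPM, 45 (12.8%) had 1 library whose gap to its nearest neighbor exceeded Dixon's 95% critical value for 4 samples. Over the 8427 protein-coding genes with a mean of at least 5 TPM this share was 5.90%, and chance flags about 1 group in 20. The named genes include the 20 with the largest CV and lists chosen with earlier results known, and the bounds on level differ, so the higher share among them was shaped by the selection and is no result. Below, each TPM in the library that stood apart is followed by the mean of the other three libraries. Replicate 1 was the high library for 20 genes, among them genes of the choroid plexus and the meninges, which were Aqp1 (4.21 against 0.270), Clic6 (12.5 against 1.82), Col1a1 (4.08 against 1.01), Col1a2 (6.90 against 2.12), Ecrg4 (32.0 against 3.15), Enpp2 (319 against 46.6), Folr1 (9.23 against 0.701), Igf2 (25.9 against 6.17), Kcnj13 (5.37 against 0.131), Kl (15.2 against 0.634), Mgp (12.6 against 3.91), Ptgds (328 against 136) and Ttr (1508 against 27.7). Also high in replicate 1 were Bpifa2 (20.6 against 0.0734), Col9a3 (11.0 against 4.28), Ifi27 (22.1 against 9.52), Itm2a (13.9 against 10.5), Mia (9.94 against 4.2), Pomc (2.65 against 1.69) and Rbbp4 (19.2 against 17.9). Low in replicate 1 were Cacna1b (15.6 against 18.1), Gapdh (894 against 926), Hspa8 (559 against 639), Lhfpl3 (16.2 against 20.1), Ppia (491 against 619), Slc1a2 (192 against 213), Tmem212 (7.71 against 9.25) and Vamp2 (220.4 against 253). Replicate 2 was high for Ache (56.7 against 46.7), Cartpt (57.2 against 9.39), Hcrt (103 against 1.83), Kcnk9 (12.2 against 9.66), Maged1 (189 against 166) and Rgs9 (5.65 against 4.45), a set that holds the hypothalamic peptides Hcrt and Cartpt, and low for Chrna4 (25.5 against 29.3) and Trf (121 against 137). In replicate 3, Hrh3 (43.6 against 35.8) was high. Replicate 4 was high for Chrna3 (5.82 against 4.01), Chrnb3 (3.06 against 1.84), Gpr151 (19.3 against 14.2), Htr5b (4.48 against 3.16) and Nwd2 (18.7 against 13.3), of which all but Htr5b are in the habenular list, and low for Adra1d (1.87 against 3.17), Clcn3 (33.5 against 34.8) and Six3 (1.64 against 5.51). The part of the amount of neighboring tissue taken in each dissection was not tested.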

How the results depend on the processing

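Leaving out each library in turn, setting aside replicates 3 and 4 for their genotype tag, 2 other scalings of the totals and other bounds on low values were tried. Of the main summaries under these alternatives, 169 stayed within the spread between libraries or within 1.5 times the count, and 6 did not. For list sums, the share of the highest genes and the ratio of Slc17a6 to Slc17a7, leaving out libraries cannot move the mean beyond that spread. Those comparisons could not have failed, so the tally is no measure of robustness for them. The choroid plexus sum went from 531 to 80.8 TPM without replicate 1 and still counted as within the spread. For list sums under another scaling, staying within the spread was judged after the change of the overall total was divided out, since the sums themselves rise with the total. The share of the 100 highest genes was 18.6%, but 33.4% with all listed genes in the total and 15.5% without Gm20594, an alternative chosen after seeing the data. The number of genes with a CV above 0.5 was 18, and from 7 (without replicate 1) to 21 when 1 library was left out. It was 75 with protein-coding totals scaled to 1000000, where the bound of 5 admits genes of lower level by construction, 86 with a bound of 1 TPM and 7 with a bound of 20 TPM. Of 680 neighboring pairs within lists, 298 had ranges that did not overlap and 390 kept their order in 4 of 4 libraries. The order of the means was kept in 627 to 639 pairs when 1 library was left out, in 610 without replicates 3 and 4, in 676 under both scalings, and in 634 with medians in place of means. List means that rest on 1 library, such as those of the choroid plexus, should be read by library, since their SD is as large as the mean. No paired analysis was possible because the results come from no test and only 1 group was described. Depth limits genes near 1 TPM most, and TPM gives no counts to measure it.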

Other observations

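Gene families outside the transmitter lists, taken by name, were also counted, after their values had been seen. Of 26 cytochrome c oxidase genes, 22 reached 1 TPM in every library and the family held 0.998% ± 0.0330 of the protein-coding TPM, led by Cox4i1. The vacuolar proton pump genes, which acidify synaptic vesicles and lysosomes, held 0.659% ± 0.0104, with Atp6v0c at 410.3 ± 10.9 TPM. Among chemosensory receptors, Olfr613 was at 14.8, 15.1, 17.3 and 15.6 TPM and Vmn1r58 at 21.7, 25.3, 25.4 and 26.2 TPM in replicates 1 to 4, whereas only 2 of 1102 Olfr genes and 2 of 329 Vmn genes reached 1 TPM in every library. Whether reads of overlapping transcripts were assigned to those loci was not tested. Of 49 keratin genes, Krt222 alone reached 1 TPM in every library, at 10.1 ± 0.908 TPM.

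Pairs of genes from the same nuclei did not always move together. The ratio of Oxt to Avp, both made in large neurons of the hypothalamus, was 1.46, 2.43, 4.17 and 5.34 in replicates 1 to 4, although both genes were lowest in replicate 4. Without replicate 1, 7 of the 20 genes with the largest CV were again among the 20, and Gad1, Gad2 and Slc32a1 were among those that entered.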
